A study of Homo sapiens with 6 samples.

Results

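The Eph receptors and ephrins described here are 10 genes chosen by name as members of this family that colon epithelium uses: the receptors EPHA1, EPHA2, EPHA4, EPHB2, EPHB3 and EPHB4 and the ephrins EFNA1, EFNA4, EFNB1 and EFNB2. They were taken by Ensembl gene ID from a table of 79302 genes. The rule itself uses no measured value, but the members were chosen with earlier results of these data known. All 10 passed the filter on low counts, and the family as listed here has 22 genes. Transcripts were measured by RNA-seq in 6 libraries of the human colorectal carcinoma line HCT116. A control shRNA was present in 3 of them (shCtrl), and the other 3 had an shRNA that targets GDPD5 (shGDPD5), the gene of a membrane glycerophosphodiesterase. The study's text describes radioresistant HCT116 cells, made by 25 rounds of irradiation and collected 6 h after 4 Gy in both groups, whereas the sample labels name only the line and its shRNA. The libraries come from 1 cell line, and nothing states that the 3 libraries of a group were separate cultures, so the p-values below measure the spread between these libraries, which may be technical. The comparison asks which of these transcripts differ between the shGDPD5 and the shCtrl libraries. Which of the study's GDPD5 shRNAs was sequenced is not stated. Effects of lowered GDPD5 and other effects of that shRNA cannot be told apart here.

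Eph receptors are receptor tyrosine kinases, and ephrins are their ligands on the surface of neighbouring cells. A-class ephrins are held to the membrane by a lipid anchor and bind mainly EphA receptors, and B-class ephrins cross the membrane and bind mainly EphB receptors, with EPHA4 able to bind both classes. Contact signals into the receptor cell (forward) and into the ephrin cell (reverse), and it steers adhesion, repulsion and the actin skeleton through adaptors and kinases. In the intestine EPHB2 and EPHB3 are known targets of Wnt signalling that are high at the crypt base, and ephrin-B1 and ephrin-B2 are high further up, which keeps crypt cells in position.

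In short, 5 of the 10 genes passed an adjusted p under 0.05 in edgeR's quasi-likelihood test. EPHB2, EPHA4 and EFNB2 fell in the shGDPD5 libraries and EPHB3 and EFNA4 rose. The same test called 59.7% of all 16755 tested genes, with 29.7% higher and 30.1% lower, so a call for 5 members in 10 lies near the share for all genes. The members differ among themselves in direction: the receptor pair EPHB2 and EPHB3 moved opposite ways, as did the ligands EFNB2 and EFNA4.

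Promoters are shown for these 5 genes because their transcripts differed between the groups. Each is the 250 bases before a start site in RefSeq (build GRCh38.p14), read 5′ to 3′ in the direction of transcription, and all 10 members had an entry. Capitals mark matches, on either strand, to a TCF/LEF word of Wnt target genes (CTTTGNT with A or T at N), an AP-1 site (TGANTCA), a hypoxia response core (ACGTG), a cAMP response element (TGACGTCA), an E2F word (TTTNNCG with C or G at each N) or a CCAAT box (CCAAT). The hypoxia core and the cAMP element share the letters ACGT, and GC boxes (GGGCGG) were counted but are left in lower case. The lines are in the order EPHB2 (chr1:22710588-22710837, plus strand), EPHA4 (2 starts, chr2:221574203-221574452 and chr2:221572305-221572554, minus strand), EFNB2 (chr13:106535663-106535912, minus strand), EPHB3 (chr3:184561535-184561784, plus strand) and EFNA4 (chr1:155063490-155063739, plus strand).
EPHB2: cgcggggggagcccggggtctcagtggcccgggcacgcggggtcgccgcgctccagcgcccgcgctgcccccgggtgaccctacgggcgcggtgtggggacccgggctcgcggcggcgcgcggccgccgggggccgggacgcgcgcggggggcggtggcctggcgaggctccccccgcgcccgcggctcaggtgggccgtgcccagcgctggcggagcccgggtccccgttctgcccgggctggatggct
EPHA4, outer start: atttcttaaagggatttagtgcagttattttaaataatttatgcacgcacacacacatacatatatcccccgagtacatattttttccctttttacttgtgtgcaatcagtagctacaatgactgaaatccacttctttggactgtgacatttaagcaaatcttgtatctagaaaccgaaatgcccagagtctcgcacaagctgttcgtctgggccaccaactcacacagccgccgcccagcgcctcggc
EPHA4, inner start: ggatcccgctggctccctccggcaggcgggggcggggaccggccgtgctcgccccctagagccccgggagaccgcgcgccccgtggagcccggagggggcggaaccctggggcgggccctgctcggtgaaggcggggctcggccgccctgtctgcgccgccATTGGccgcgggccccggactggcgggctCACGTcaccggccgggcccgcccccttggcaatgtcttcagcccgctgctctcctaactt
EFNB2: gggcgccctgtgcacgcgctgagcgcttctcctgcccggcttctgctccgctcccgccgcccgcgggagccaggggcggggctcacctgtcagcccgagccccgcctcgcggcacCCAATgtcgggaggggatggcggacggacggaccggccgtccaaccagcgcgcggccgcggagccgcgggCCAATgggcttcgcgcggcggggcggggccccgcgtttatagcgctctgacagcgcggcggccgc
EPHB3: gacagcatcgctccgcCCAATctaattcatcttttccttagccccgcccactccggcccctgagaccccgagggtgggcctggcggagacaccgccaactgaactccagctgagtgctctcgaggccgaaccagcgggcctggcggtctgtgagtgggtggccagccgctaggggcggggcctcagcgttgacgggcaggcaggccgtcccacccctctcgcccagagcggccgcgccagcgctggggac
EFNA4: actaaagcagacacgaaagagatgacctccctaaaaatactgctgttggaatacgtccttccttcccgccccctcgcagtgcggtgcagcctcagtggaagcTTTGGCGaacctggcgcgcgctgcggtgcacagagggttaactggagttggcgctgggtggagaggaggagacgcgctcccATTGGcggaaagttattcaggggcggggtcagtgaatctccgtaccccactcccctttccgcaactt

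The EPHB2 window has 84.8% G and C, holds 1 GC box and matches none of the other words. EPHB2 also has another listed start, whose window (chr1:22710589-22710838, not printed) has the same G and C share and the same matches. The inner EPHA4 window has 78% G and C with a CCAAT box starting at position -89 from the start site and a hypoxia response core at -60, whereas the outer one has 43.2% G and C and only a GC box. EFNB2 (78.4%) holds 2 CCAAT boxes. EPHB3 (70%) holds 1 CCAAT box at -234, and EFNA4 (58.4%) holds an E2F word at -148 and a CCAAT box at -67. These windows hold GC boxes as well, 5 in the inner EPHA4 window, 3 in EFNB2, 3 in EPHB3 and 2 in EFNA4. The median share of G and C over all windows is 58%. No window of any of the 10 members holds the TCF/LEF or the AP-1 word, which occur in 6.6% and 6.57% of the 35116 promoter windows of the table, and the cAMP element (1.65% of windows) occurs once, in EPHA2 at -51. The CCAAT box is in 32% of all windows, the hypoxia core in 18.5%, an E2F word in 7.33% and the GC box in 42.6%. These matches describe the letters in these windows only.

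The libraries held 16715522 to 18510728 estimated counts, and PC1 of log2 CPM (counts scaled to a common library total), with 72.9% of the variance, separated the groups. Replicate 1 of shCtrl stood apart on PC2 (8.29% of the variance) at 28.3, against -14.8 and -13.3 for the other shCtrl libraries. GDPD5 stood at 8.33, 11.6 and 9.75 CPM in shCtrl and at 5.44, 5.55 and 5.19 CPM in shGDPD5, a log2 fold change of -0.88 (SE, the standard error, 0.13, adjusted p = 0.000116, edgeR). Of 12 colon epithelium markers, 10 were tested and all 10 passed, 9 lower and KRT20 (log2 fold change 1.23) higher, where 59.7% of all tested genes passed. Their summed level was 3470 to 3968 CPM in shCtrl and 2745 to 2850 in shGDPD5, with CDX1 at 0 throughout and VIL1 at 0 to 0.534 CPM. The 7 fibroblast markers summed to 19.1 to 21.6 CPM in shCtrl and 20.7 to 24.3 in shGDPD5, nearly all of it COL1A1, with COL1A2, DCN and LUM at 0. The 8 blood and endothelial markers summed to 7.40 to 11.9 CPM in shCtrl and 3.44 to 3.68 in shGDPD5, mostly CD68 (log2 fold change -1.63, adjusted p = 1.82e-05, edgeR), with CD3E and CDH5 at 0.

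Among the B-class receptors, EPHB2 (ENSG00000133216, plus strand of chr1:22710839-22921500 in GENCODE release 29 on GRCh38) showed the smallest adjusted p of the members. Its TMM-normalized level was 35.9, 40.8 and 41.4 CPM in the shCtrl libraries and 16.5, 18.3 and 17.3 CPM in the shGDPD5 libraries. Every shGDPD5 library lay below every shCtrl library, by a wide gap. The mean fell from 39.4 ± 3.00 to 17.3 ± 0.888 CPM (SD, n = 3 libraries each), a log2 fold change of -1.18 (SE 0.08, 95% interval -1.35 to -1.02, adjusted p = 5.12e-08, edgeR), which leaves 44.0% of the control level. In bulk RNA, fewer cells with a transcript and less of it per cell cannot be told apart, which holds for every level given here. Of the 10 tested epithelial markers, 9 were lower too, among them CDH1, KRT19 and ELF3 with log2 fold changes of -0.83, -0.73 and -1.08. KRT8 was at -0.16 with overlapping groups, and KRT20 was higher, at 1.23. The part of these markers in the result for EPHB2 was not tested.

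EPHB3 (ENSG00000182580, plus strand of chr3:184561784-184582409), the other EphB receptor of crypt base cells, is a low-count gene in these libraries, with 57, 72 and 81 counts in shCtrl and 112, 123 and 102 in shGDPD5. These are 3.32, 4.06 and 4.67 CPM against 6.55, 6.56 and 5.75 CPM. All shGDPD5 libraries lay above all shCtrl libraries, and the shCtrl libraries were spread more widely. EPHB3 rose 1.56-fold, a log2 fold change of 0.64 (SE 0.15, 95% interval 0.32 to 0.97, adjusted p = 0.00231, edgeR). Without shCtrl replicate 1, the lowest library, the log2 fold change was 0.52 (adjusted p = 0.00846).

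EPHB4 (ENSG00000196411, minus strand of chr7:100802565-100827521), best known as the receptor of ephrin-B2 in blood vessels, was at 57.5, 71.5 and 72.1 CPM in shCtrl and at 73.4, 75.7 and 76.2 CPM in shGDPD5. The groups did not overlap, but the distance between the highest shCtrl and the lowest shGDPD5 library was small beside the spread within shCtrl, where replicate 1 was low. The log2 fold change of 0.16 (SE 0.08, 95% interval -0.0031 to 0.33) did not pass (adjusted p = 0.0838, edgeR). It was 0.06 without shCtrl replicate 1 (adjusted p = 0.183) and 0.21 without shCtrl replicate 3, where it passed (adjusted p = 0.0419).

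**Figure D1:**
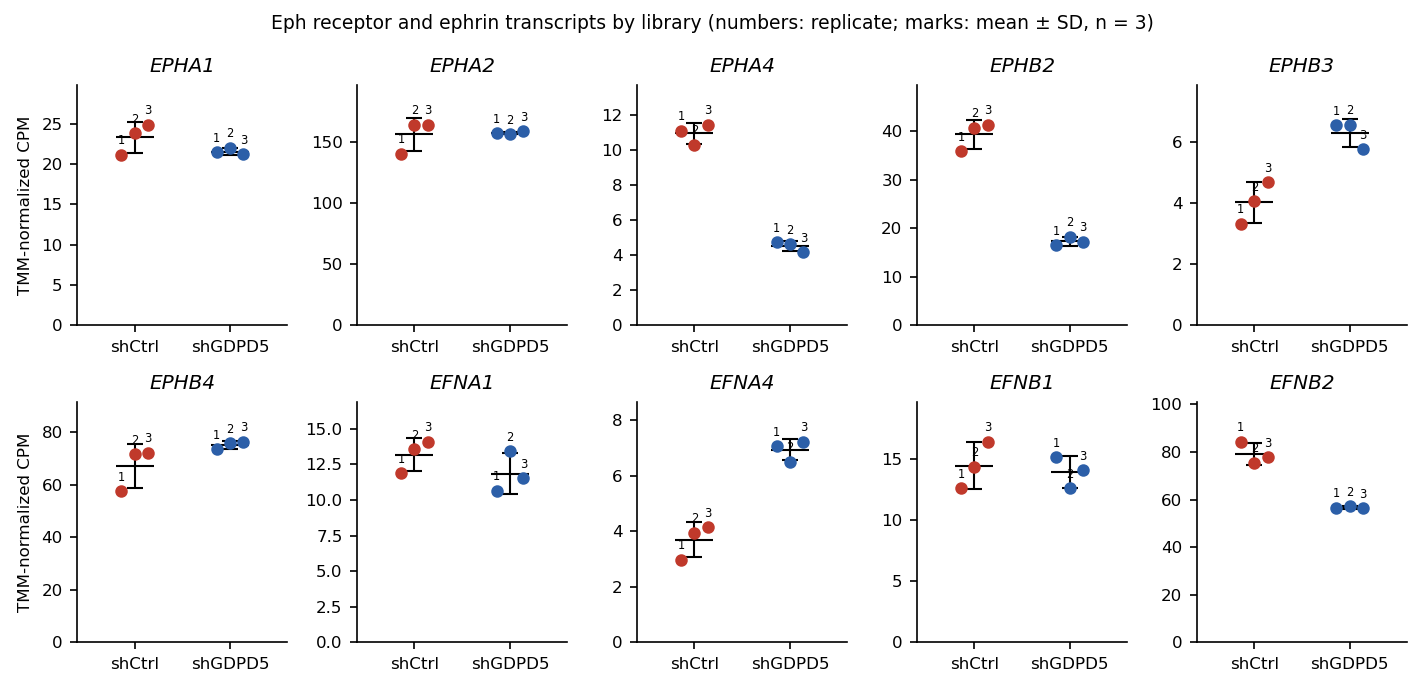
Levels of the 10 genes in each library, in TMM-normalized CPM from 0 on a linear axis that differs between panels. Each point is 1 library with its replicate number, red marking shCtrl and blue marking shGDPD5, and the bars give mean and SD of 3 libraries. EPHA4, EPHB2 and EFNB2 lie lower in every shGDPD5 library, and EPHB3, EFNA4 and, by a small distance, EPHB4 lie higher. The lowest shCtrl library is replicate 1 in 8 of the panels.

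Of the A-class receptors, EPHA4 (ENSG00000116106, minus strand of chr2:221418027-221574202), the receptor that binds ephrins of both classes, had the lowest log2 fold change of the members. It was at 11.1, 10.3 and 11.5 CPM in shCtrl (191, 183 and 199 counts) and at 4.73, 4.64 and 4.17 CPM in shGDPD5 (81, 87 and 74 counts). The groups were well apart and each was narrow. The fall from 11.0 ± 0.588 to 4.52 ± 0.301 CPM (SD, n = 3 each) is a log2 fold change of -1.28 (SE 0.11, 95% interval -1.52 to -1.03, adjusted p = 8.97e-07, edgeR), with 41.2% of the control level left. The study states a pair of fold limits. One is a log2 ratio of at least 1 in size, and the other is a fold over 1.5 or under 0.5, given with a t test p under 0.05. With a log2 fold change of 1 or more in size, and edgeR's p before adjustment under 0.05, EPHA4 and EPHB2 passed among the members. So did 2007 of the 16755 tested genes (12%). With a fold over 1.5 or under 0.5 and the same p, EPHB3 and EFNA4 passed too, as did 2273 higher and 1105 lower of all tested genes. These counts rest on edgeR's p and are not the counts that the study reported.

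EPHA2 (ENSG00000142627, minus strand of chr1:16124337-16156087), a receptor widely expressed in epithelial tumours, was the most abundant member. It was at 140.4, 164.2 and 164.3 CPM in shCtrl and at 157.0, 156.6 and 158.8 CPM in shGDPD5, so that the shGDPD5 libraries lay inside the range of the shCtrl libraries. The log2 fold change was 0.01 (95% interval -0.12 to 0.14, adjusted p = 0.892, edgeR), and without shCtrl replicate 1 it was -0.06 (adjusted p = 0.0639). EPHA1 (ENSG00000146904, minus strand of chr7:143390289-143408892) was at 21.2, 23.9 and 24.9 CPM in shCtrl and at 21.4, 22.0 and 21.2 CPM in shGDPD5, with overlapping groups. Its log2 fold change of -0.11 (95% interval -0.28 to 0.052) did not pass (adjusted p = 0.219), but it passed at -0.18 without shCtrl replicate 1 (adjusted p = 0.0262, edgeR). Whether EPHA1 passes thus depends on that library.

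Of the B-class ephrins, EFNB2 (ENSG00000125266, minus strand of chr13:106489731-106535662), a ligand of EphB receptors and of EPHA4, fell. It was at 84.2, 75.4 and 77.9 CPM in shCtrl and at 56.6, 57.2 and 56.2 CPM in shGDPD5. The 3 shGDPD5 libraries were nearly level and all lay below the shCtrl libraries. The log2 fold change was -0.48 (SE 0.06, 95% interval -0.60 to -0.36, adjusted p = 9.90e-06, edgeR), and 71.6% of the control level was left. EFNB2 is also the member for which shCtrl replicate 1 was the highest shCtrl library, and without it the log2 fold change was -0.44 (adjusted p = 3.63e-06). EFNB1 (ENSG00000090776, plus strand of chrX:68828997-68842147), the other transmembrane ligand measured here, overlapped between the groups, at 12.6, 14.3 and 16.4 CPM in shCtrl and 15.1, 12.6 and 14.04 CPM in shGDPD5. Its log2 fold change was -0.05 (95% interval -0.29 to 0.19, adjusted p = 0.698, edgeR), and its sign turned when shCtrl replicate 3 (0.04) or shGDPD5 replicate 2 (0.0082) was left out.

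Of the A-class ephrins, EFNA4 (ENSG00000243364, plus strand of chr1:155063731-155069553) rose. It is the other low-count member, with 51, 69.98 and 71.83 estimated counts in shCtrl and 120.93, 121.83 and 127.97 in shGDPD5, or 2.97, 3.95 and 4.15 CPM against 7.07, 6.51 and 7.22 CPM. The groups were well apart. EFNA4 stood 1.87-fold higher in shGDPD5, a log2 fold change of 0.91 (SE 0.15, 95% interval 0.59 to 1.22, adjusted p = 0.000163, edgeR), and without shCtrl replicate 1 the log2 fold change was 0.77 (adjusted p = 0.000517). EFNA1 (ENSG00000169242, plus strand of chr1:155127460-155134857), a ligand of EPHA2, overlapped between the groups, at 11.9, 13.5 and 14.1 CPM in shCtrl and 10.6, 13.4 and 11.5 CPM in shGDPD5. Its log2 fold change of -0.15 (95% interval -0.39 to 0.087) did not pass (adjusted p = 0.255, edgeR).

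**Figure D2:**
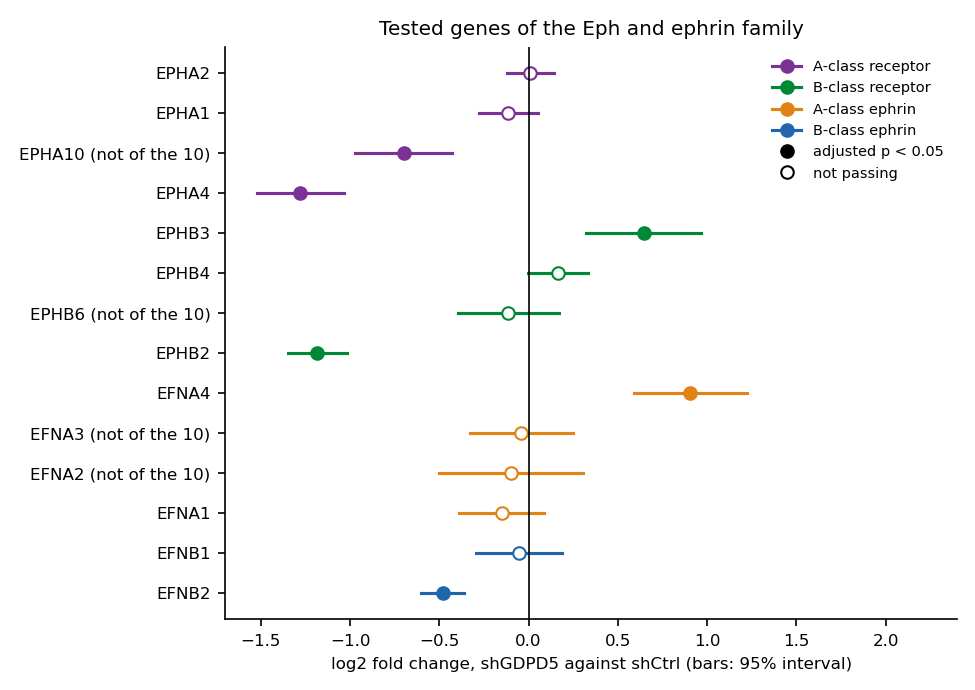
Fitted log2 fold change of shGDPD5 against shCtrl (x axis) for the 14 tested genes of the family, coloured by class, with bars for the 95% interval and filled points for an adjusted p under 0.05 in edgeR. Of the filled points, EPHB2, EPHA4, EPHA10 and EFNB2 lie to the left of 0 and EPHB3 and EFNA4 to the right.

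Over the 10 members, the median log2 fold change was -0.083, beside 0.0098 over all tested genes, and the median absolute log2 fold change was 0.32, beside 0.36. The groups did not overlap for 6 members, 3 higher (EPHB3, EFNA4 and EPHB4) and 3 lower (EPHB2, EPHA4 and EFNB2). That is 60.0% of the members, and the groups did not overlap for 64.95% of all tested genes. By these counts and medians the members lay near the table as a whole.

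To compare levels between genes, CPM was divided by the length of the merged exons in GENCODE release 29. In shCtrl the order of the levels per kilobase (CPM per kb, mean ± SD, n = 3) began with EPHA2 at 37.6 ± 3.31, EFNB2 at 15.8 ± 0.908 and EPHB4 at 10.4 ± 1.29. EFNA1 (5.19 ± 0.451), EPHA1 (4.93 ± 0.405) and EFNB1 (4.35 ± 0.574) followed, and each of these overlapped its neighbour in this order. EPHB2 (3.15 ± 0.240) and EFNA4 (2.92 ± 0.501) overlapped as well, and EPHA4 (1.45 ± 0.0778) and EPHB3 (0.887 ± 0.150) were last. The merged exons of EPHB2 span 12516 bases, against 4159 to 7554 for the other 5 receptors, so its level per kilobase depends more on which exons are used.

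In shGDPD5 EPHA2 was again first at 37.9 ± 0.274 CPM per kb, while EPHB4 (11.7 ± 0.234) stood above EFNB2 (11.3 ± 0.0961). EFNA4 followed at 5.49 ± 0.295, overlapping EFNA1 at 4.67 ± 0.556. The lowest levels were EPHB3 (1.39 ± 0.103), EPHB2 (1.39 ± 0.0707), which overlapped, and EPHA4 (0.598 ± 0.0398). Thus EFNA4 moved up this order per kilobase and EPHB2 moved down it to the level per kilobase of EPHB3.

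The balance within the B-class receptors differed between the groups in every library. Over all B-class receptors of the family, EPHB6 and EPHB1 included, EPHB2 made up 21.1%, 19.97% and 20.1% of the summed level per kilobase in shCtrl and 8.67%, 9.35% and 8.94% in shGDPD5. EPHB3 made up 5.38%, 5.49% and 6.26% in shCtrl and 9.51%, 9.30% and 8.23% in shGDPD5. EPHB4 held 65.6% to 68.0% in shCtrl and 75.1% to 76.8% in shGDPD5, and EPHB6 5.52% to 7.88% and 5.84% to 6.58%, with overlapping groups. All these shares are parts of the same sum, so a lower EPHB2 level by itself raises the other shares. The level of EPHB4 itself did not pass (adjusted p = 0.0838, edgeR). The ratio of EPHB2 to EPHB3 per kilobase went from 3.92, 3.64 and 3.21 in shCtrl to 0.912, 1.01 and 1.09 in shGDPD5. That near equality depends on the merged exon lengths, 12516 bases for EPHB2 and 4532 for EPHB3. In CPM, not divided by length, EPHB2 stayed above EPHB3 in shGDPD5, at a mean of 17.3 against 6.29. The ratio of the EPHB4 transcript to that of its ligand EFNB2 was 0.532, 0.740 and 0.723 in shCtrl. In shGDPD5 it was 1.01, 1.03 and 1.06, close to 1. These shares and ratios compare transcripts per kilobase and depend on the exon lengths used. They do not give amounts of receptor or ligand protein. The ratio of EFNB2 to EFNB1 was 3.14 to 4.42 in shCtrl and 2.47 to 3.00 in shGDPD5.

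Among the ligands, the summed level of all B-class ephrins was 20.6, 19.4 and 20.5 CPM per kb in shCtrl and 16.0, 15.3 and 15.6 in shGDPD5, lower in every shGDPD5 library. EFNA1 and EFNA4 together were at 7.03, 8.46 and 8.83 in shCtrl and 9.79, 10.4 and 10.3 in shGDPD5. With EFNA2, EFNA3 and EFNA5 added, the whole A-class was at 14.2, 17.8 and 18.7 in shCtrl and 18.4, 18.2 and 19.2 in shGDPD5, and the groups overlapped. The higher level of EFNA4 thus did not set the A-class sum apart. All ephrins of the family together were at 34.7 to 39.2 CPM per kb in shCtrl and 33.5 to 34.8 in shGDPD5, with shCtrl replicate 1 just inside the shGDPD5 range. All receptors together were at 54.7, 64.1 and 64.5 in shCtrl and at 59.0, 59.6 and 59.7 in shGDPD5, inside the shCtrl range, with EPHA2 holding 61.2% to 61.7% of the receptor level in shCtrl and 63.2% to 64.0% in shGDPD5.

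**Figure D3:**
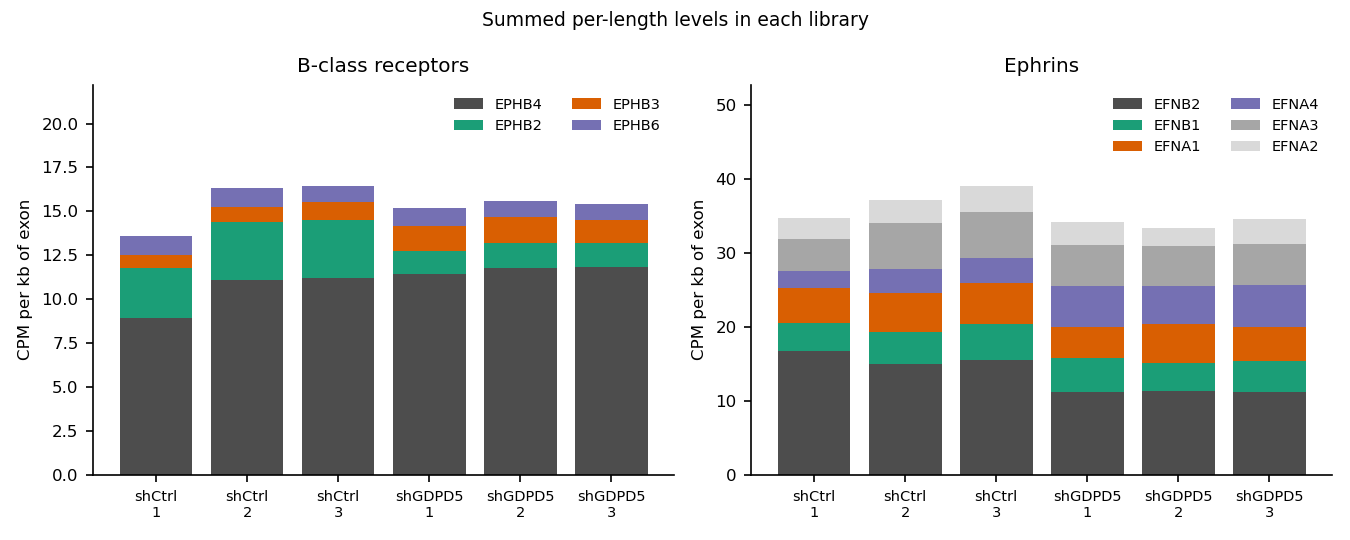
Summed levels per kilobase of merged exon (CPM per kb, stacked bars from 0) of the tested B-class receptors (left) and the tested ephrins (right) in each of the 6 libraries. The EPHB2 segment is shorter and the EPHB3 segment taller in every shGDPD5 library, and in the ephrin bars EFNB2 is shorter and EFNA4 taller, while the lowest shCtrl ephrin bar, of replicate 1, is nearly level with the highest shGDPD5 one.

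Of the other 12 genes of the family, 4 were tested. EPHA10, an EphA receptor without kinase activity, was at 10.7, 14.1 and 13.3 CPM in shCtrl and 7.01, 7.95 and 8.46 CPM in shGDPD5, a log2 fold change of -0.70 (SE 0.12, adjusted p = 0.000365, edgeR). EPHB6, the kinase-dead EphB receptor, showed a log2 fold change of -0.11 at an adjusted p of 0.470, EFNA2 one of -0.10 (adjusted p = 0.662) and EFNA3 one of -0.04 (adjusted p = 0.813), all with overlapping groups. EPHA3 and EPHA5 were at 0 in every library, and EPHA6, EPHA7, EPHA8, EPHB1 and EFNA5 had 0 to 9 counts per library and adjusted p-values of 0.246 to 0.540 when fitted without the filter. EFNB3 had 0, 1 and 1 counts in shCtrl and 7, 7 and 9 in shGDPD5, and in that fit, chosen after the data were seen, it had an adjusted p of 0.000643 from 25 counts in all. For the members that passed, the unfiltered fit gave smaller adjusted p-values than the filtered one at like fold changes. For EPHB2 these were 1.73e-48 against 5.12e-08 (edgeR), so p-values of the 2 fits are not on a like scale. The members held 87.8% to 89.4% of the family's level per kilobase in every library.

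Words shared with other genes on the same strand made up a larger share for EFNA4 than for the other members. Of its 1292 words of 31 bases in GENCODE transcripts, 12.3% also occur in another gene, the readthrough EFNA4-EFNA3, which had at most 3.3 estimated counts in a library. The other members shared 0% to 1.5% of their words, EPHA2 and EPHB2 sharing 31 words with each other. Exons on the opposite strand overlap EPHA1 by 82 bases (ZYX, log2 fold change -0.65, adjusted p = 9.03e-06, edgeR) and EPHB4 by 69 bases (SLC12A9, log2 fold change 0.26, adjusted p = 0.0261, edgeR). Antisense genes overlap EFNB2 by 1313 bases, with 4.23 to 16.52 counts against at least 967.6 for EFNB2, and EPHA4 by 353 bases, with 0 to 4 counts, and the miRNA gene MIR4253 overlaps EPHB2 by 34 bases with no counts. Whether the counting used strand is not given in the sources used here, so reads of opposite-strand exons cannot be told apart from those of the members.

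Around the family, 58 genes of its signalling were listed, of which 52 were tested, and 6 rose, 23 fell and 23 did not pass. The called share was 55.8%, beside 59.7% of all tested genes. The median log2 fold change was -0.11, with 44.2% of the tested genes lower, beside 30.1% lower among all tested genes. Only NGEF, TIAM1 and PARD6B were called with a log2 fold change of 1 or more in size, and all 3 fell. Adaptors that dock on activated receptors gave 2 higher and 7 lower of 13 (69.2% called), with a median of -0.17. SHC1 fell from 249.4 ± 21.1 to 155.4 ± 5.54 CPM (SD, n = 3 each), a log2 fold change of -0.68 (adjusted p = 1.04e-06). GRB10, with -0.65 (adjusted p = 1.05e-06), and GRB7, with -0.72 (adjusted p = 1.90e-05), fell to a like degree (edgeR), and both bind phosphorylated tyrosines through an SH2 domain.

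Among kinases and phosphatases of Eph signalling, 1 of 11 tested rose and 4 fell (median -0.077). That is 45.5% called, beside 59.7% of all tested genes. FYN, a Src family kinase that acts downstream of both ephrins and receptors, fell from 31.9 ± 2.34 to 17.9 ± 1.06 CPM (SD, n = 3 each), a log2 fold change of -0.84 (adjusted p = 1.41e-06, edgeR). PTPRF, the receptor phosphatase LAR, fell by 0.67 on the log2 scale (adjusted p = 7.33e-07), and PTPN1 (PTP1B), a phosphatase that acts on Eph receptors, rose with 0.25 (adjusted p = 0.000577, edgeR). SRC itself, at a log2 fold change of -0.02, did not pass (adjusted p = 0.818, edgeR), and it is named as the founding Src family kinase, a choice made after its value was seen.

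Of 6 tested partners of ephrin-B tails, PARD6B, a polarity protein of tight junctions, fell with a log2 fold change of -1.24 (SE 0.07, adjusted p = 1.33e-08) and PICK1, a PDZ protein, rose with 0.20 (adjusted p = 0.0474, edgeR). The other 4 did not pass, so 33.3% were called, beside 59.7% of all tested genes. Of 7 tested proteases that cut Eph and ephrin ectodomains or their stubs, 1 rose and 4 fell (71.4% called, median -0.26). ADAM17 fell from 121.6 ± 4.70 to 66.4 ± 2.11 CPM (SD, n = 3 each), a log2 fold change of -0.87 (adjusted p = 2.55e-08, edgeR). ADAM10, the protease known to cleave ephrins upon receptor contact, fell with -0.39 (adjusted p = 5.30e-05), and MMP14, a membrane protease that can cleave EPHA2, fell with -0.41 (adjusted p = 0.000621, edgeR).

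**Figure D4:**
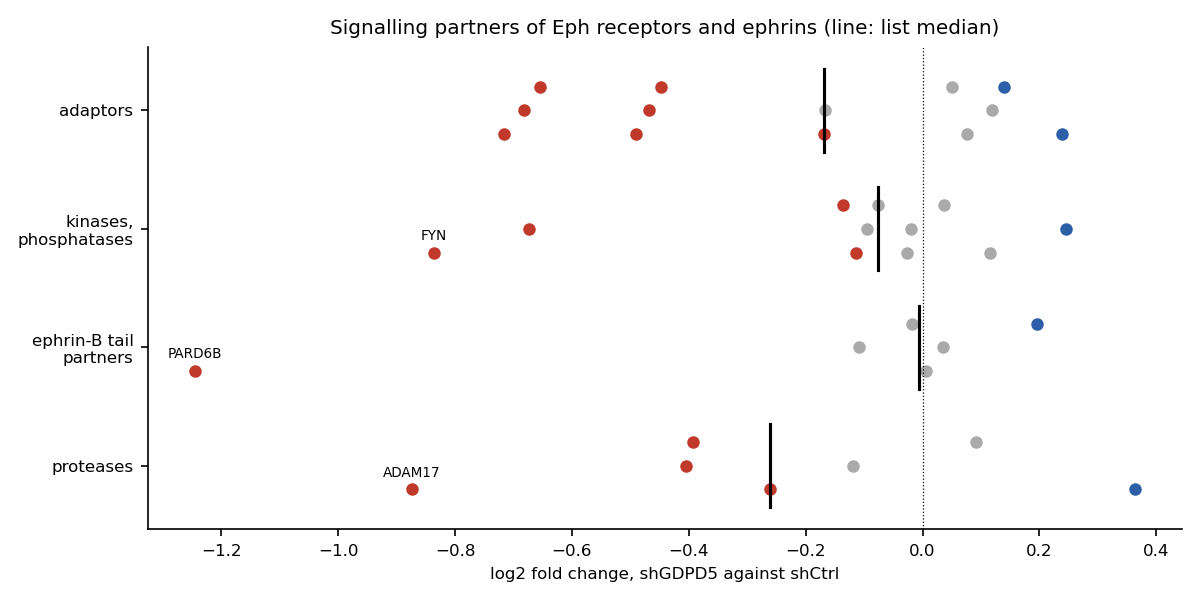
Log2 fold change of shGDPD5 against shCtrl (x axis) for the tested genes of 4 signalling lists, with red points lower and blue points higher at an adjusted p under 0.05 in edgeR, grey points not passing, and a line at each list's median. PARD6B (-1.24) and ADAM17 (-0.87) lie farthest from 0.

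EPHB2 and EPHB3 are known Wnt targets, and other Wnt targets of crypt progenitor cells moved in both directions. Of 15 listed, 10 were tested, and 3 rose, 2 fell and 5 did not pass (median 0.21). Of all tested genes 59.7% were called, 29.7% higher and 30.1% lower, so calls in both directions do not set this list apart. AXIN2, a feedback inhibitor of the pathway, rose from 7.21 ± 0.473 to 21.0 ± 0.790 CPM (SD, n = 3 each), a log2 fold change of 1.54 (adjusted p = 2.31e-08, edgeR), the direction of EPHB3 and the opposite of EPHB2. SOX9, a transcription factor of crypt progenitors, fell with -0.51 (adjusted p = 1.89e-06), and CD44, a surface glycoprotein, fell with -0.25 (adjusted p = 0.000316, edgeR).

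The genes whose pattern over the 6 libraries was most like that of EPHB2, by the Euclidean distance between centred log2 CPM values, were NIT1 (distance 0.07), KLF7 (0.0749) and NFE2L1 (0.1058). Their log2 fold changes were -1.20, -1.20 and -1.16. With 2 groups that differ, such likeness is mostly a like fold change, and 5035 genes were lower.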

How the data were processed

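Estimated counts per gene, not normalized between libraries, were deposited by the authors in 1 table for 3 shCtrl and 3 shGDPD5 libraries. Per the labels, total RNA was made into libraries with the SMARTER mRNA-Seq kit, and a company, OE Biotech, sequenced and analysed them. The aligner, the counting tool, the strand setting and the genome build are each not given in the sources used here. Before testing, values were rounded to whole numbers. Genes were kept by the default filter of edgeR 4.0.16 in R 4.3.3 (minimum count 10), TMM-normalized and tested with the quasi-likelihood test and Benjamini-Hochberg adjustment over all 16755 tested genes, with 3 libraries per group and no further term. Standard errors were taken as the absolute log2 fold change over the square root of the F statistic, and 95% intervals use the residual plus prior degrees of freedom of the fit. Totals of 16715522 to 18510728 counts limit precision for genes of a few counts. CPM uses TMM-adjusted totals, and CPM per kb the merged exons of GENCODE release 29.

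The fit was tested on simulated data. The alternatives tried were upper quartile and RLE factors, DESeq2 1.42.0, voom of limma 3.58.1, a per-gene test on log2(CPM + 1), other filters, the study's fold limits, a replicate block, and each library left out. Named genes are all members, the tested rest of the family, up to 3 genes per list with the smallest adjusted p under 0.05, GDPD5, the 3 genes most like the member of smallest adjusted p with a mean CPM of at least 5, and genes overlapping members. The members and lists were chosen with earlier results of these data known, and list members were written from general knowledge. Marker lists were written likewise. A list of signalling genes counted in their total is not reported here on its own.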

Additional observations from a re-analysis of the deposited data

How the results depend on the processing

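EPHB2, EPHA4, EFNB2, EPHB3 and EFNA4 kept their direction and passed under each of the 14 other fits, with log2 fold changes of -1.25 to -1.14, -1.33 to -1.12, -0.52 to -0.44, 0.52 to 0.76 and 0.77 to 0.99 and adjusted p-values of at most 0.00145, 0.00101, 0.00359, 0.0293 and 0.0117. With an unadjusted p under 0.05 and a log2 fold change of 1 or more in size, 0 members were higher and 2 lower, against 902 and 1105 of all genes and 0 and 3 of the signalling genes. With a fold over 1.5 or under 0.5 in its place, the study's other limit and added after seeing the data, 2 members were higher and 2 lower, against 2273 and 1105 of all genes and 0 and 3 of the signalling genes. With 1 library left out, 2 to 3 members were higher and 3 to 4 lower, all genes gave 4410 to 5091 and 4604 to 5266, and the signalling genes, whose alternatives were chosen after seeing the data, 4 to 6 and 20 to 28. EPHA2 was -0.0047 without the filter and -0.065 to 0.043 with a library left out, and EFNB1 was -0.15 to 0.042. EPHA1 passed without shCtrl replicate 1 and EPHB4 without shCtrl replicate 3. The cause was not tested. Same-numbered libraries of the groups did not vary together (correlations of deviations -0.07, -0.0517 and -0.041), and with a replicate block 2 members were higher and 3 lower, with 4792 and 4853 of all genes and 5 and 22 of the signalling genes. Counts of 51 to 128 per library limit EPHB3 and EFNA4.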
